A study of Mus musculus with 12 samples.

Results

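Oxidative phosphorylation genes were followed across sorted mouse B cells as a fixed list of 40 nuclear genes, which encode subunits of the respiratory complexes I to IV and the electron carrier cytochrome c. A gene was taken where a probe set of the array carried its symbol and no other, which held for 38 of the 40 genes, on 84 probe sets, out of 18193 genes measured in this way. These 38 are 23 genes of complex I, 4 of complex II, 5 of complex III, cytochrome c and 5 of complex IV. Ndufs6, of complex I, lay only on a probe set shared with Ndufs6b, which read between 11.27 and 11.77 log2 units on the 12 arrays, and Cox7b, of complex IV, was not analysed here.

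RNA of C57BL/6 female mice was hybridised to 12 Affymetrix arrays, 3 for each of 4 groups of B cells sorted by flow cytometry without culture. Age-associated B cells (old ABC) and follicular B cells (old FO) came from the spleen, and B1 cells (old B1; B1a in the sample titles) from the peritoneal cavity, of mice older than 15 months. The last group, young B1, holds peritoneal B1 cells from mice of 8 weeks. All 4 groups share strain and sex, and no group carries a treatment or an engineered allele per the labels; tissue and B cell type cannot be told apart between B1 cells and the splenic groups, and no young splenic group was used here. The labels do not say whether the 3 arrays of a group are separate mice, so a p-value here covers only the spread among the arrays, which may be technical. Values are log2 of the deposited intensity, differences are log2 differences between group means with the standard error (SE) of limma, and "called" means a limma p, adjusted by Benjamini-Hochberg over all 18193 genes, under 0.05.

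The respiratory chain sits in the inner mitochondrial membrane. Complex I takes electrons from NADH and complex II from succinate, complex III passes them to cytochrome c, and complex IV hands them to oxygen. Complexes I, III and IV pump protons, and ATP synthase uses the gradient to make ATP. B cells at rest draw on this pathway, and activation, class of B cell and tissue are known to alter its use. Most subunits are encoded in the nucleus, where NRF1, the ETS family factor GABP (NRF-2), YY1 and ERR alpha are known regulators. TFAM is a factor that acts in the maintenance and transcription of the mitochondrial genome.

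Promoters of 4 members are shown because they hold letters that these regulators are known to read, and the transcripts of the regulators themselves are described further on. RefSeq promoter windows of build GRCm38.p6, from 250 bases before to 50 bases after the start of the gene, were found for 29 of the 38 members, 30 windows in all. Both strands were searched for 4 strings: the NRF1 core GCGCNTGCG, the ETS core CCGGAAG, the YY1 core AAGATGGC and the ERR element TCAAGGTCA. The stretches below are the 250 bases before the start, 5′ to 3′ on the strand of the gene, with matches to any of the strings in capitals. Cox6a1 (complex IV) is at chr5:115348959-115349208, Cycs (cytochrome c) at chr6:50566570-50566819, Ndufs3 (complex I) at chr2:90904722-90904971 and Sdhd (complex II) at chr9:50603850-50604099, all on the minus strand.
Cox6a1: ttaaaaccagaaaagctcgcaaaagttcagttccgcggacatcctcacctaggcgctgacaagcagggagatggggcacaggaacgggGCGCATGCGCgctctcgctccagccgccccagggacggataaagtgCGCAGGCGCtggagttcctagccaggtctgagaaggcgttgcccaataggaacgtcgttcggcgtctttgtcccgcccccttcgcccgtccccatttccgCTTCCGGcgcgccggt
Cycs: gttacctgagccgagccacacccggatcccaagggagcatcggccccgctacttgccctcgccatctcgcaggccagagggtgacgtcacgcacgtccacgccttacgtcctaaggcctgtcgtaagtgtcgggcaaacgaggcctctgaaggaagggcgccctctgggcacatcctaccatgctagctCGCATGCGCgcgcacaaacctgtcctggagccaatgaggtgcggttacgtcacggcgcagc
Ndufs3: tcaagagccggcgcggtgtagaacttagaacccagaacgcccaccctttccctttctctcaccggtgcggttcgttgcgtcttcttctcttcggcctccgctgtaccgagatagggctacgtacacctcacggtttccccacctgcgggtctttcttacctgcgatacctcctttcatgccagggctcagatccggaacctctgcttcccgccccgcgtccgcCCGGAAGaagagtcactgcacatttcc
Sdhd: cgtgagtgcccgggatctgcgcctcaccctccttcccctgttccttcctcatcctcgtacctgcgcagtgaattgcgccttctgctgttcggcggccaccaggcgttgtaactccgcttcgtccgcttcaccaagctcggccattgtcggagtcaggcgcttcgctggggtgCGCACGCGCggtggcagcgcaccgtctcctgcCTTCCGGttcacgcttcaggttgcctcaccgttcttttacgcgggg

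In these stretches the capitals of Cox6a1 are an NRF1 core read on both strands, another NRF1 core and an ETS core, Cycs holds 1 NRF1 core, Ndufs3 1 ETS core, and Sdhd an NRF1 core followed by an ETS core. Over the 300-base windows the NRF1 core was found in 33.3% of the windows of members, against 6.31% of all 32851 windows and 10.01% of the windows of genes on the array. The ETS core was in 23.3% of member windows, 8.86% of all windows and 13.0% of those of array genes. The YY1 core was in 16.7% (5 of 30), 2.75% and 3.38% of the windows. The ERR element was in 3.33%, 0.423% and 0.342%, and the first of these is 1 of 30 windows, that of Sdhd, after the start. The YY1 cores of Ndufa3, Ndufa9, Ndufb8, Ndufs4 and Ndufs7 all lay from 23 to 39 bases after the start. The strings can overlap each other, a match is a description of letters and not a binding site, and no measurement of binding was made here.

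Every measured member gave a bright probe set. The means over the 12 arrays lay between the 72.8th percentile of all genes, for Uqcrc1, and the 99.8th, for Cox5b, and 28 of the 38 were at or above the 90th percentile. Brightness also depends on the probe sequences, so it does not order the genes by amount of RNA. The values moved little between arrays. From its lowest to its highest array a member spanned a median of 0.53 log2 units, against 0.87 over all genes, and 4 of 38 members (10.5%) spanned more than 1 unit, against 42.3% of all genes. In the heat map of all 38 genes most fields are pale, and the deepest colours sit in Ndufb2, Ndufs4 and Uqcrq on the second old ABC array.

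**Figure D1:**
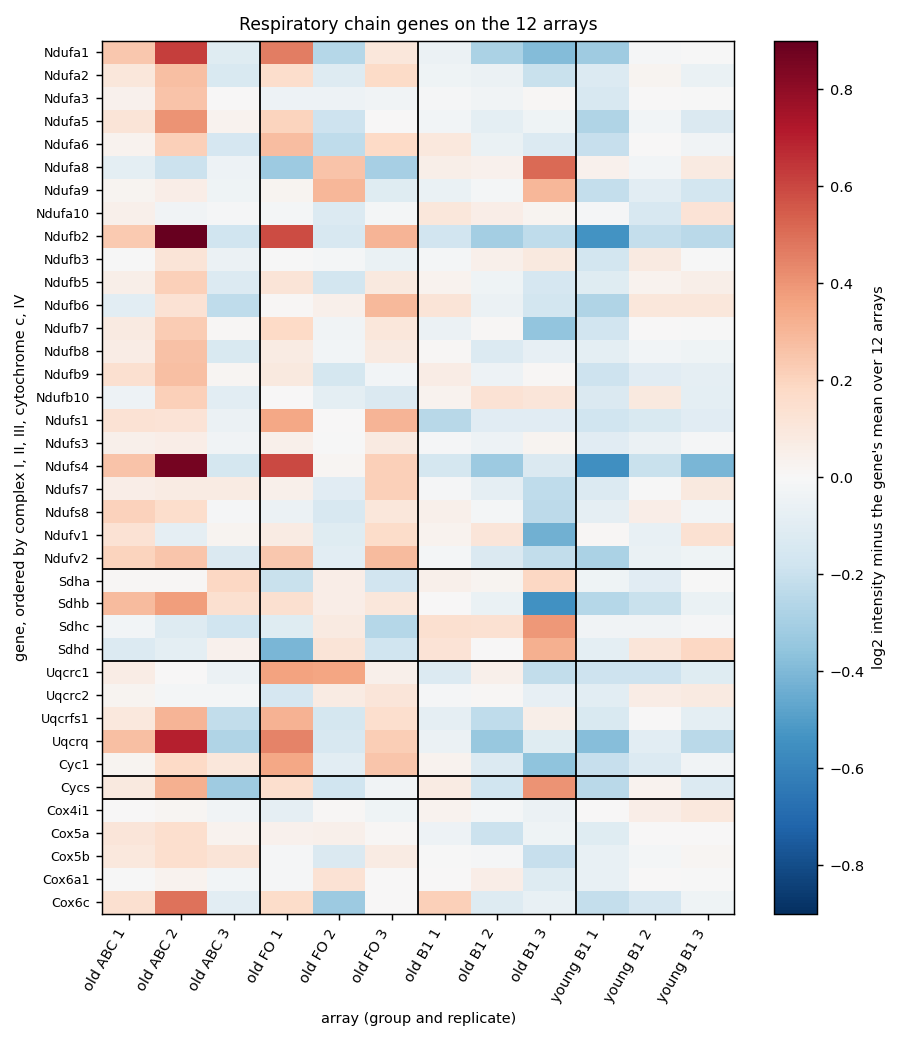
Each field is the log2 intensity of 1 respiratory chain gene (rows, ordered by complex) on 1 array (columns, 3 per group) minus the mean of that gene over the 12 arrays, on a colour scale in log2 units from blue (below) to red (above). Old ABC replicate 2 holds the highest value of 17 of the 38 genes, and young B1 replicate 1 the lowest value of 12.

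No respiratory chain gene was called between old ABC and old FO cells, between old ABC and old B1 cells, or between old and young B1 cells, and 1 was called between old B1 and old FO cells. Over all genes, 9.96% were called between old ABC and old FO, 12.8% between old ABC and old B1, 16.4% between old B1 and old FO (8.4% higher and 8.02% lower in B1), and 0.291% between old and young B1. The gene called was Ndufs1, lower in old B1, which is 1 of 38 members beside that 16.4%. A moderated F test for any difference among the 4 groups, added after the data had been seen, called 0 of 38 members and 20.5% of all genes. At an unadjusted p under 0.05 in limma the members numbered 1, 4, 4 and 0 in the 4 comparisons in the same order, against 20.4%, 25.5%, 28.6% and 7.57% of all genes. The comparisons share arrays, so their counts are not independent of each other.

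The sizes of the differences were small. The median over members was 0.03 for old ABC minus old FO, 0.12 for old ABC minus old B1, -0.06 for old B1 minus old FO and 0.02 for old minus young B1, and the medians over all genes were -0.03, 0.02, -0.04 and -0.01. Single arrays move these medians by more than 1.5 times. Old ABC minus old FO was -0.02 without old ABC replicate 2, -0.0041 without old FO replicate 2, 0.09 without old ABC replicate 3 and 0.06 without old FO replicate 1. Old ABC minus old B1 was 0.03 without old ABC replicate 2, and old B1 minus old FO was -0.13 without old FO replicate 2 and -0.10 without old B1 replicate 1. Old minus young B1 was -0.02 without young B1 replicate 1, 0.0043 without old B1 replicate 1, and 0.04 to 0.06 without old B1 replicate 3 or young B1 replicate 2 or 3. The median thus changed sign with 1 array left out in old ABC minus old FO and in old minus young B1. The member furthest from 0 differed 1.19-fold in the first comparison (Uqcrc1), 1.47-fold in the second (Ndufb2), 1.40-fold in the third (Ndufb2) and 1.19-fold in the last (Sdhc). Intervals of 95% from limma, each taken on its own, describe the spread among the arrays for the probe set used. Dimmer probe sets of Ndufa3 and Cox5b, described below, passed 2-fold in old B1 minus old FO. The intervals lay wholly within 2-fold for 38, 36, 36 and 38 of the 38 members and within 1.5-fold for 35, 32, 28 and 34. In the plot of all differences the intervals that pass 2-fold belong to Ndufb2 and Ndufs4.

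**Figure D2:**
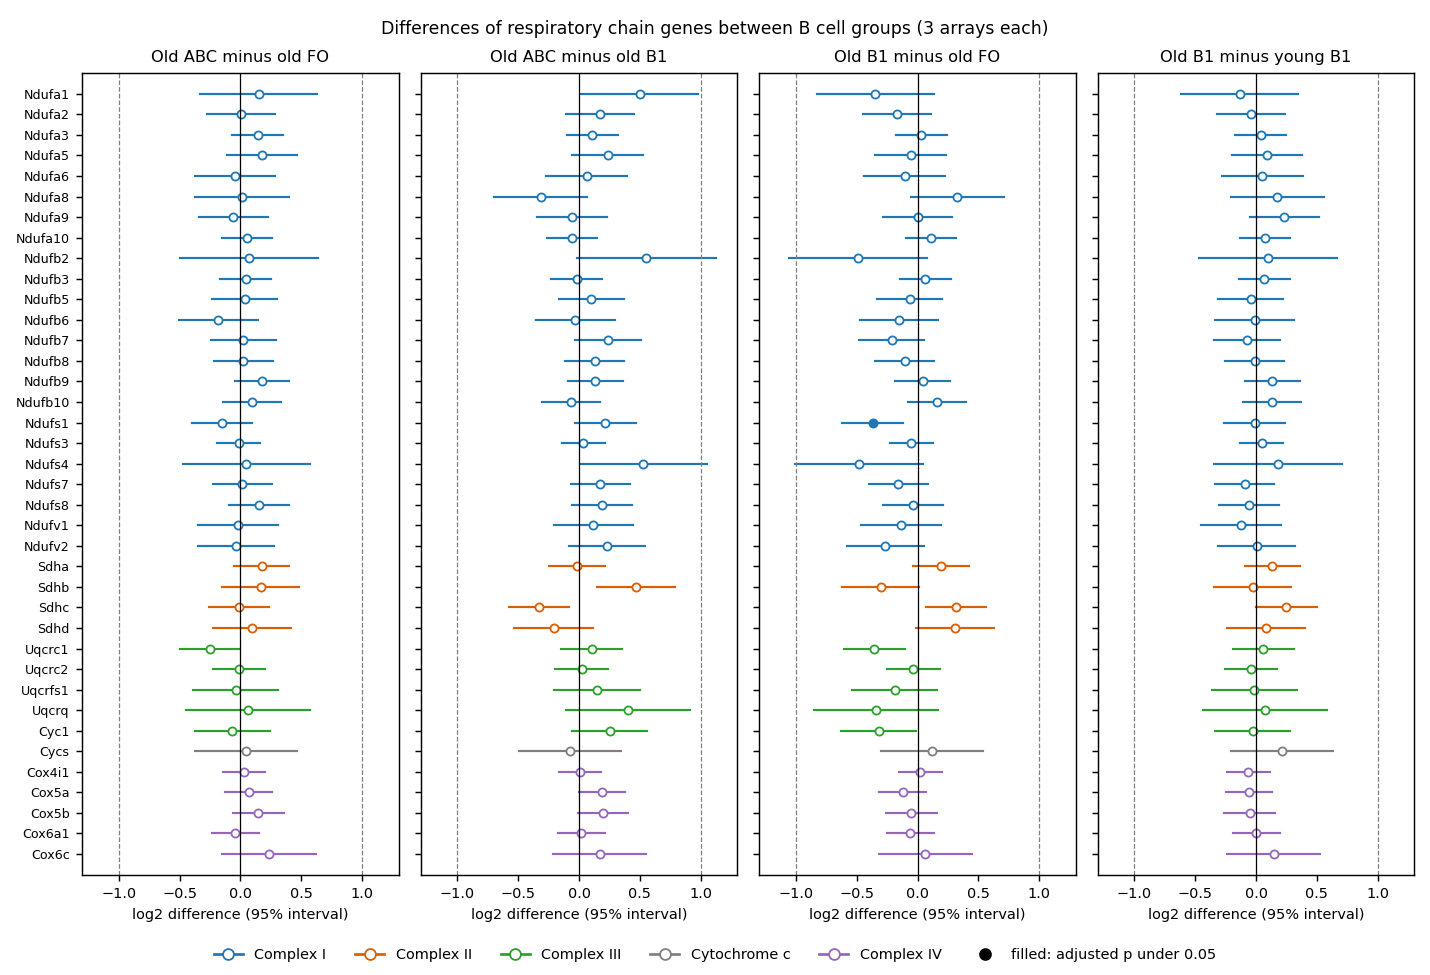
Log2 difference of group means (points) with its 95% interval (lines) for the 38 genes, 1 panel per comparison, coloured by complex; 3 arrays per group. Dashed lines mark a 2-fold difference, and the only filled point, an adjusted p under 0.05 in limma, is Ndufs1 in old B1 minus old FO.

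The members were also set beside the 4945 genes whose mean was at least that of the dimmest member. The median absolute difference was 0.05 for members and 0.15 for those genes in old ABC minus old FO, 0.16 and 0.20 in old ABC minus old B1, 0.15 and 0.22 in old B1 minus old FO, and 0.06 and 0.11 in old minus young B1. Of those 4945 genes, 10.8%, 14.8%, 21.0% and 0.182% were called. The cumulative curves of the absolute differences show the members to the left of both other sets in each comparison. These shares describe the list and were not tested.

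**Figure D3:**
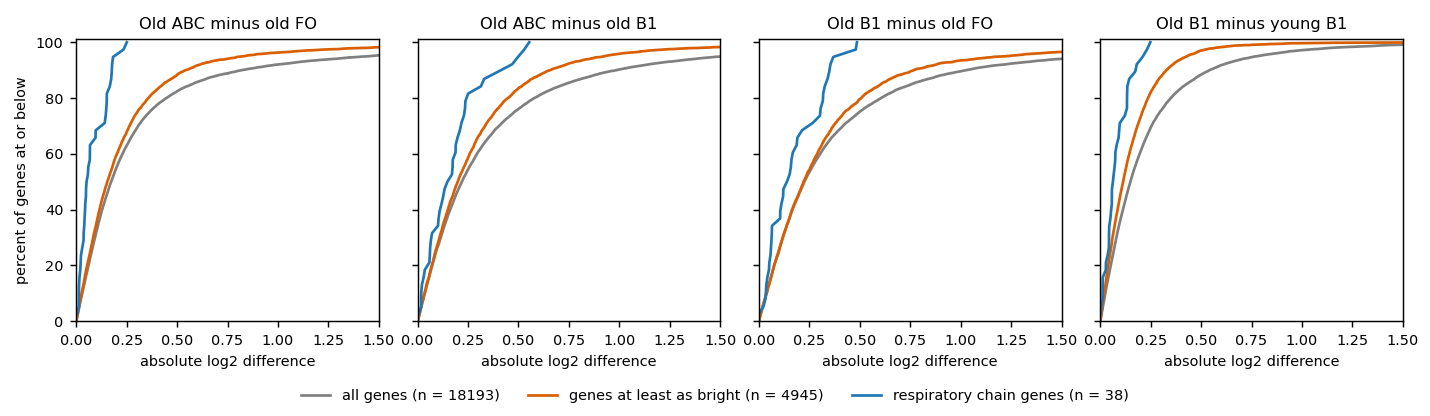
Percent of genes (vertical axis) whose absolute log2 difference is at or below the value on the horizontal axis, for the 38 respiratory chain genes (blue), the 4945 genes at least as bright (orange) and all 18193 genes (grey), 1 panel per comparison. No member goes beyond 0.25, 0.55, 0.49 and 0.25 log2 units in the 4 panels.

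Complex I, the NADH dehydrogenase, had 23 measured members. Their differences ran from -0.18 to 0.18 in old ABC minus old FO (median 0.02), from -0.31 to 0.55 in old ABC minus old B1 (0.13), from -0.49 to 0.33 in old B1 minus old FO (-0.11) and from -0.13 to 0.23 in old minus young B1 (0.04). Ndufs1, its largest iron-sulphur subunit, read 11.23, 10.89 and 11.19 on the old FO arrays, 11.01, 11.01 and 10.83 on old ABC, 10.63, 10.79 and 10.78 on old B1, and 10.71, 10.75 and 10.79 on young B1. All 3 old B1 arrays lay below the 3 old FO arrays, and the B1 groups overlapped each other. It was lower in old B1 than in old FO by a log2 difference of -0.37 ± 0.11 (SE, n = 3 per group), 1.29-fold, with an adjusted p of 0.0479 in limma. The call depended on the setting: of 26 alternative settings, 18 ended it, the adjusted p ran from 0.0027 to 0.207, and leaving out any 1 of the 12 arrays except old FO replicate 2 ended it; the difference stayed between -0.50 and -0.30. Without old FO replicate 2 it was -0.48, with an adjusted p of 0.0123 in limma.

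Other members of complex I differed less, or varied as much within groups as between them. Ndufs7, which carries the terminal iron-sulphur cluster of the chain to ubiquinone and is the brightest complex I member, read 12.88, 12.89 and 12.89 on old ABC, 12.86, 12.72 and 13.03 on old FO, 12.81, 12.74 and 12.59 on old B1, and 12.70, 12.81 and 12.91 on young B1. Its old ABC arrays lay above its old B1 arrays, by 0.17 ± 0.11 with an adjusted p of 0.352 in limma. Ndufs3, another core subunit, was among the steadiest of the members, between 12.23 and 12.41 on the 12 arrays. Its old ABC arrays read 12.38, 12.39 and 12.30, old FO 12.37, 12.33 and 12.41, old B1 12.32, 12.29 and 12.35, and young B1 12.23, 12.28 and 12.32. The groups overlapped in each of the 4 comparisons, the 3 old FO arrays lay above the 3 young B1 arrays, and its 4 intervals stayed between -0.23 and 0.22.

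Ndufb9, an accessory subunit, read 11.36, 11.48 and 11.23 on old ABC, 11.30, 11.05 and 11.18 on old FO, 11.28, 11.17 and 11.22 on old B1, and 11.03, 11.11 and 11.13 on young B1. The 3 old B1 arrays lay above the 3 young ones, by 0.13 ± 0.10, with an adjusted p of 0.720 in limma. Ndufa9, an accessory subunit near the ubiquinone-binding site, read 11.47, 11.52 and 11.83 on old B1 and 11.32, 11.44 and 11.37 on young B1. These did not overlap either, at 0.23 ± 0.13 and an adjusted p of 0.702 in limma; on old ABC Ndufa9 read 11.56, 11.59 and 11.50 and on old FO 11.56, 11.83 and 11.43.

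Complex II, succinate dehydrogenase, is the only member complex with no mitochondrially encoded subunit, and it also works in the citric acid cycle. Its 4 genes did not lean the same way. Sdhb, the iron-sulphur subunit, read 11.57, 11.66 and 11.42 on old ABC, 11.43, 11.34 and 11.38 on old FO, 11.28, 11.22 and 10.74 on old B1, and 11.02, 11.08 and 11.22 on young B1. All old B1 arrays were below all old ABC and old FO arrays. Old ABC minus old B1 was 0.47 ± 0.14 with an adjusted p of 0.0585 in limma, and old B1 minus old FO was -0.30 ± 0.14 with an adjusted p of 0.197. Old B1 replicate 3 sets much of this: without it old ABC minus old B1 was 0.30, with an adjusted p of 0.0966 in limma. Sdhb was called under 6 of the 26 alternatives, with an adjusted p from 0.0378 to 0.23.

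Sdhc, a membrane anchor of complex II, went the other way. It read 10.21, 10.12 and 10.06 on old ABC, 10.13, 10.32 and 9.98 on old FO, 10.38, 10.38 and 10.63 on old B1, and 10.21, 10.20 and 10.23 on young B1. All 3 old B1 arrays lay above the 9 others. The differences were -0.33 ± 0.11 for old ABC minus old B1 (adjusted p 0.0865 in limma), 0.32 ± 0.11 for old B1 minus old FO (0.0854) and 0.25 ± 0.11 for old minus young B1 (0.659), none of them called. Without old FO replicate 2 old B1 minus old FO was 0.41 with an adjusted p of 0.0371 in limma, and without old B1 replicate 3 it was 0.23 with an adjusted p of 0.190. Sdhd, the other anchor, read 10.43, 10.46 and 10.59 on old ABC, 10.15, 10.67 and 10.38 on old FO, 10.68, 10.56 and 10.88 on old B1, and 10.47, 10.66 and 10.74 on young B1. Its groups overlapped, and old B1 minus old FO was 0.31 ± 0.15 with an adjusted p of 0.199 in limma.

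Sdha, the flavoprotein that oxidises succinate and the brightest gene of complex II, read 12.12, 12.13 and 12.30 on old ABC, 11.91, 12.18 and 11.95 on old FO, 12.16, 12.14 and 12.30 on old B1, and 12.08, 12.02 and 12.11 on young B1. Its old ABC and old FO arrays overlapped, at 0.17 ± 0.10 with an adjusted p of 0.417 in limma. The old B1 arrays were above the young ones, by 0.13 ± 0.10 with an adjusted p of 0.720 in limma. These directions depend on the probe set: with the most variable, dim one, old ABC minus old FO was -0.21, old B1 minus old FO -0.43 and old minus young B1 -0.27, in place of 0.17, 0.19 and 0.13, and with the other bright one old B1 minus old FO was -0.15.

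Complex III, the cytochrome bc1 complex, had 5 members, and all 5 averaged lower in old B1 than in old FO, from -0.35 to -0.03, with none called. Uqcrc1, a core protein, read 9.98, 9.98 and 9.66 on old FO, 9.68, 9.62 and 9.56 on old ABC, 9.49, 9.66 and 9.40 on old B1, and 9.43, 9.43 and 9.51 on young B1. The old FO arrays were all above the old B1 arrays, narrowly so for the third old FO array. Old B1 minus old FO was -0.35 ± 0.11 with an adjusted p of 0.0572 in limma, and it was called in 4 of 26 alternatives, with an adjusted p from 0.0239 to 0.244; without old FO replicate 3 or old B1 replicate 2 it was called. Old ABC minus old FO was -0.25 ± 0.11, adjusted p 0.243 in limma, with overlapping arrays.

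Uqcrc2, the other core protein and the brightest complex III member, read 12.84, 12.81 and 12.81 on old ABC, 12.67, 12.89 and 12.93 on old FO, 12.81, 12.83 and 12.75 on old B1, and 12.73, 12.89 and 12.90 on young B1. Its 4 differences lay between -0.04 and 0.02 and its arrays overlapped in every comparison. Cyc1, the haem-bearing cytochrome c1, was -0.32 ± 0.14 in old B1 minus old FO (adjusted p 0.160 in limma), and Uqcrfs1, the Rieske iron-sulphur protein, was -0.19 ± 0.16 (0.497).

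Cytochrome c itself, Cycs, which carries electrons from complex III to complex IV and triggers apoptosis when released, read 11.44, 11.66 and 11.02 on old ABC, 11.49, 11.17 and 11.32 on old FO, 11.42, 11.17 and 11.75 on old B1, and 11.11, 11.38 and 11.22 on young B1. Groups overlapped throughout, and its differences lay between -0.07 and 0.21. The interval of the largest, old minus young B1, ran from -0.21 to 0.63.

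Complex IV, cytochrome c oxidase, held the steadiest gene. Cox4i1, a regulatory subunit, read 12.33, 12.34 and 12.30 on old ABC, 12.25, 12.34 and 12.29 on old FO, 12.36, 12.31 and 12.28 on old B1, and 12.33, 12.38 and 12.42 on young B1. All 12 arrays lay within 0.17 log2 units, the smallest range of any member, and its intervals in the 4 comparisons stayed between -0.24 and 0.21. Cox6a1 read 13.20, 13.24 and 13.18 on old ABC, 13.19, 13.34 and 13.21 on old FO, 13.21, 13.27 and 13.09 on old B1, and 13.14, 13.21 and 13.21 on young B1, a range of 0.25. Cox5b, the zinc-binding subunit and the brightest member, read 13.65, 13.70 and 13.67 on old ABC, 13.53, 13.42 and 13.62 on old FO, 13.54, 13.53 and 13.34 on old B1, and 13.48, 13.53 and 13.56 on young B1. All 3 old ABC arrays were above those of the other 3 groups, by 0.15 ± 0.09 over old FO and 0.20 ± 0.09 over old B1, with adjusted p values of 0.464 and 0.219 in limma. Cox5a, a matrix-side subunit, lay lower on all old B1 arrays (12.32, 12.17 and 12.32) than on old ABC (12.47, 12.51 and 12.39) or old FO (12.40, 12.41 and 12.37), at 0.19 ± 0.09 for old ABC minus old B1 with an adjusted p of 0.203 in limma. Cox6c, a small membrane subunit, was the most variable of the complex, from 12.26 to 13.08, with all groups overlapping.

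Groups whose arrays did not overlap are counted here without a test. Between old ABC and old FO, 2 of 38 members had all 3 arrays of one group above the other 3, both higher in ABC (Ndufa3 and Cox5b), against 28.8% of all genes. Between old ABC and old B1 it was 6 higher (Ndufa5, Ndufs1, Ndufs7, Sdhb, Cox5a and Cox5b) and 2 lower (Ndufa8 and Sdhc) in ABC, also against 28.8%. Between old B1 and old FO it was 4 higher (Ndufa3, Ndufa10, Ndufb10 and Sdhc) and 6 lower (Ndufb2, Ndufs1, Ndufs4, Sdhb, Uqcrc1 and Cox5a) in B1, against 28.9%. Old B1 lay above young B1 for 4 members (Ndufa9, Ndufb9, Sdha and Sdhc) and below for none, against 13.9%.

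For 2 members the differences of the probe sets of the gene lay more than 1 log2 unit apart, Ndufa3 and Cox5b in old B1 minus old FO. Below that limit the probe sets of Uqcrq, Ndufs4, Ndufb2, Ndufa10 and Sdha lay up to 0.93, 0.77, 0.77, 0.72 and 0.62 apart. For Ndufa3, a small accessory subunit of complex I, the probe set used averaged 12.50 and another 12.02, and their old B1 minus old FO differences were 0.03 and 0.00. A dimmer probe set of Ndufa3, at 7.58, differed by -1.43 with an adjusted p of 0.0047 in limma over all probe sets, reading 8.60, 8.14 and 8.65 on old FO and 7.20, 6.94 and 6.96 on old B1. For Cox5b the 4 probe sets averaging above 12 gave -0.05 to -0.01, and a dimmer one, at 8.28, gave -1.05 with an adjusted p of 0.0141; a sixth read about 3.2 on every array. With the mean of a gene's probe sets, Ndufa3, Ndufb2 and Ndufs1 were called lower in old B1 than in old FO, beside 17.1% of all genes. With the most variable probe set Ndufa3 and Cox5b were, beside 16.3%.

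The members that spanned more than 1 log2 unit were Ndufb2, Ndufs4, Uqcrq and Ndufa1, chosen for description after their values were seen. Ndufb2, an accessory subunit of complex I, read 10.997, 11.66 and 10.58 on old ABC, 11.35, 10.62 and 11.06 on old FO, 10.59, 10.45 and 10.53 on old B1, and 10.22, 10.54 and 10.52 on young B1. Within old ABC alone it covered most of its whole range. Ndufs4, an accessory subunit needed for a stable complex I, read 11.08, 11.68 and 10.67 on old ABC, 11.41, 10.84 and 11.04 on old FO, 10.66, 10.49 and 10.69 on old B1, and 10.27, 10.62 and 10.41 on young B1. The order of the arrays was nearly that of Ndufb2. Their differences between old ABC and old B1 were 0.55 ± 0.26 and 0.53 ± 0.24, with adjusted p values of 0.208 and 0.191 in limma, and for Ndufa1, the small membrane subunit that is X-linked, 0.50 ± 0.22 with 0.180. Ndufa1 read 11.91, 12.29 and 11.56 on old ABC, 12.13, 11.41 and 11.77 on old FO, 11.61, 11.38 and 11.27 on old B1, and 11.35, 11.66 and 11.66 on young B1, with every pair of groups overlapping. Without old ABC replicate 2 the Ndufa1 difference was 0.31. Uqcrq, a small subunit of complex III, read 11.15, 11.58 and 10.61 on old ABC, 11.32, 10.74 and 11.10 on old FO, 10.83, 10.54 and 10.77 on old B1, and 10.50, 10.78 and 10.64 on young B1.

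Ndufb2, Ndufs4 and Uqcrq were high and low on nearly the same arrays, and Sdhc, Sdhd and Ndufa8 tended the other way. Ndufa8, an accessory subunit of complex I, read 10.64, 10.54 and 10.69 on old ABC, 10.41, 10.99 and 10.43 on old FO, 10.79, 10.78 and 11.25 on old B1, and 10.77, 10.71 and 10.81 on young B1. Its 2 highest values were those of old B1 replicate 3 and old FO replicate 2. Over the 12 arrays the Pearson correlation of Ndufb2 was 0.98 with Ndufs4 and 0.98 with Uqcrq, and -0.64 with Ndufa8, -0.62 with Sdhd and -0.46 with Sdhc. With each group centred on its own mean these were 0.97, 0.97, -0.52, -0.42 and -0.18, so that of Sdhc shrank while the others kept most of their size; Sdha was at -0.39 over the arrays and -0.68 with groups centred. Over all 703 pairs of members the median correlation was 0.34, positive for 496 pairs. These are descriptions over 12 arrays that share their normalization, with no test.

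**Figure D4:**
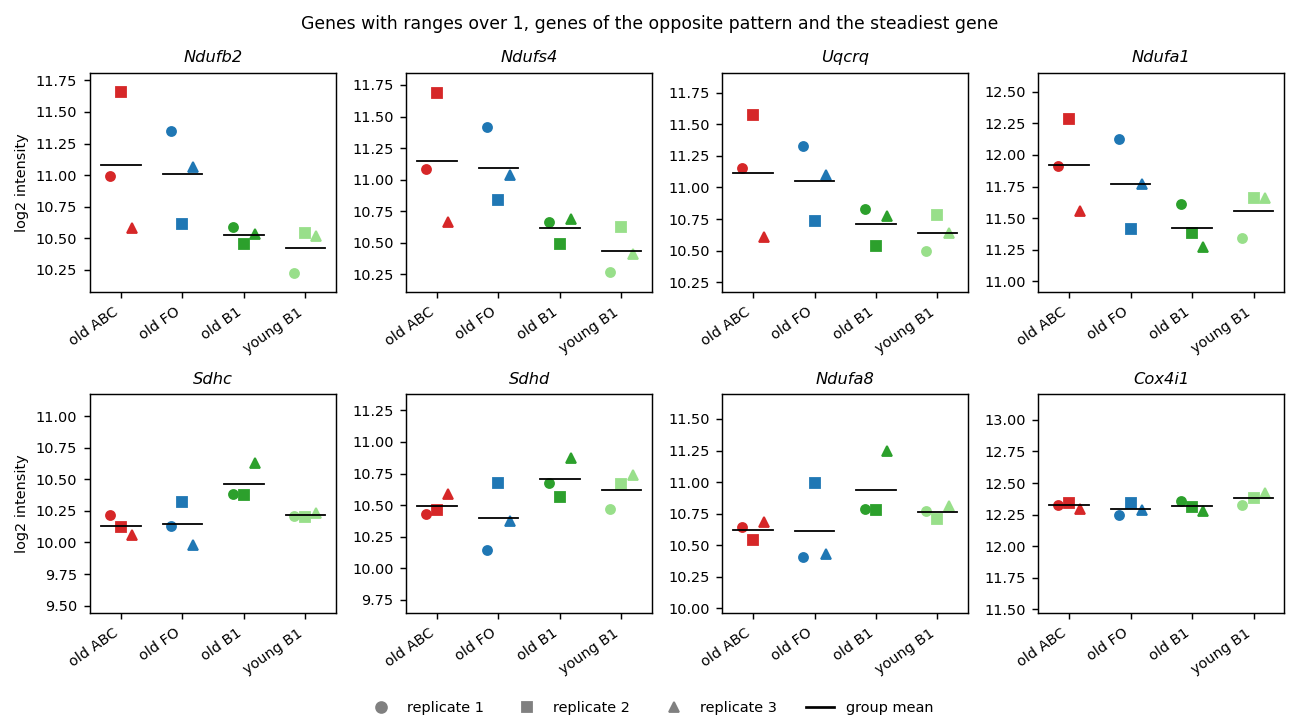
Log2 intensity of 8 respiratory chain genes on each array (points, the shape giving the replicate) with the group mean (bar), each panel spanning the same number of log2 units. Ndufb2, Ndufs4, Uqcrq and Ndufa1 spread widely within old ABC and old FO, Sdhc, Sdhd and Ndufa8 do not follow them, and Cox4i1 stays within 0.17 units.

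The same arrays recurred across members. Old ABC replicate 2 was the highest of its group for 28 of the 38 members and old ABC replicate 3 the lowest for 30; young B1 replicate 1 was the lowest of its group for 33, and old FO replicate 2 for 25. Old B1 replicate 3 held the lowest of all 12 values for 11 members and the highest for 5. Old B1 replicate 3 and old FO replicate 2 stand apart over all genes too, with a 75th percentile of intensity of 346 and 378 against 400.1 to 412 on the other arrays, and limma array weights of 0.102 and 0.349, the lowest of the 12. Without both of them 3 of 38 members were called in old B1 minus old FO, Ndufa8 and Sdhc higher and Ndufs1 lower, beside 22% of all genes. In old ABC minus old FO, old ABC minus old B1 and old minus young B1 no member was called. Of all genes, 16.3%, 17.5% and 1.14% were called there without both arrays. Without old ABC replicate 2 the median member difference of old ABC minus old B1 was 0.03 in place of 0.12.

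Markers of other cells moved with the groups. The 9 measured B cell markers summed to an intensity of 59114 to 63375 on the 6 splenic arrays and 49702 to 52285 on the 6 B1 arrays. Beside 16.4% of all genes called in old B1 against old FO, 4 of these markers were called lower and 1 higher. Among them, Cd79a and Cd79b were above 13 log2 units throughout and Pax5 was dim at 4.4 to 6.9. The 15 measured macrophage markers summed to 1167 to 3131 on old FO, 16546 to 18486 on old ABC, 12700 to 31264 on old B1 and 16010 to 27571 on young B1. Of these, 11 were called higher in old ABC than in old FO, beside 9.96% of all genes called in either direction. In old B1 against old FO 15 were called higher, beside 16.4%. Old ABC against old B1 gave 1 higher and 2 lower, beside 12.8%. Vsig4 stayed between 3.3 and 4.1 on the splenic arrays, near the bottom of the scale. The 10 measured neutrophil markers summed to 20729 to 35073 on old ABC, 464 to 9996 on old FO, 191 to 440 on old B1 and 321 to 1498 on young B1. In old ABC 5 of them were called higher than in old FO and 8 higher than in old B1. Of all genes, 9.96% and 12.8% were called there in either direction. The 9 mast cell markers summed to 238 to 260 on old FO, 521 to 1375 on old ABC, 2098 to 5101 on old B1 and 2368 to 10281 on young B1. Higher than in old FO, 6 were called in old B1 and 3 in old ABC, and 4 were lower in old ABC than in old B1. Beside these stand 16.4%, 9.96% and 12.8% of all genes, in the same order. The lists for dendritic, T, NK and erythroid or platelet cells, of 9, 10, 7 and 7 measured genes, summed to at most 3592 on any array. In old ABC minus old FO 33.3%, 10%, 28.6% and 14.3% of these lists were called, beside 9.96% of all genes. In old ABC minus old B1 it was 33.3%, 10%, 28.6% and 42.9%, beside 12.8%. In old B1 minus old FO it was 33.3%, 0%, 14.3% and 42.9%, beside 16.4%. The part of these other cells in the respiratory chain values was not tested. In sorted cells a lower level per cell cannot be told apart from fewer cells that express a gene.

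Few calls were made in the rest of the pathway. None of the 19 genes of ATP synthase and its close partners was called in any of the 4 comparisons, with median differences of 0.02, 0.09, -0.04 and -0.02 in the order given above. The 11 further complex I subunits and 4 further complex III subunits gave no call either. ND5, a complex I subunit and the only gene of the mitochondrial genome measured of 13 listed, read 12.25 to 12.76 and was not called; its adjusted p in limma was at least 0.742. Of 10 further complex IV subunits, the tissue-restricted isoforms Cox6b2 and Cox7a1 were higher in old ABC than old FO, by 0.96 ± 0.19 and 0.97 ± 0.24 (adjusted p 0.00996 and 0.026 in limma), and Cox6a2 was higher in old ABC than old B1, by 0.84 ± 0.20 (0.0186). These 3 are near the middle of all genes in brightness, at the 43.2nd to 50.8th percentile. They make 20% of the list called in old ABC minus old FO and 10% in old ABC minus old B1. Of all genes, 9.96% and 12.8% were called there. The Cox7a1 call was lost without any 1 old FO array, old ABC replicate 1 or 2, and the Cox6a2 call without old ABC replicate 1 or 2 or old B1 replicate 1 or 2, with adjusted p up to 0.0999 and 0.124.

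Assembly factors build the complexes and are not part of them. The 14 complex I assembly factors had a median of -0.33 in old B1 minus old FO, and 4 of them (28.6%) were lower in old B1 and none higher, beside 16.4% of all genes called: Ndufaf6 by -0.86 ± 0.21, Timmdc1 by -0.62 ± 0.16, Ndufaf4 by -0.59 ± 0.16 and Foxred1 by -0.66 ± 0.19, with adjusted p values in limma of 0.0153, 0.0249, 0.0306 and 0.0390. Ndufaf6 was not called without old FO replicate 1, nor Timmdc1 without old FO replicate 2 or old B1 replicate 2, with adjusted p up to 0.105 and 0.145. Ndufaf4 was lost without old FO replicate 1 or 3 or old B1 replicate 2 or 3 (up to 0.117), and Foxred1 under 13 of the 26 alternatives, 8 single arrays among them (up to 0.175). No complex I assembly factor was called in the other 3 comparisons. Of 26 factors for complexes II to IV, 3 were lower (Cox10, Cox18 and Coa7) and 2 higher (Bcs1l and Coa5) in old B1 than in old FO, and Sdhaf4 and Cox17 were higher and Bcs1l lower in old ABC than in old B1. These shares, 19.2% and 11.5%, lie near the 16.4% and 12.8% of all genes. The 5 calls between old B1 and old FO were each lost without old FO replicate 1 or 3, under 4 (Cox10) to 17 (Coa7) of 26 alternatives. In old ABC against old B1, Cox17 was lost under 18 alternatives and Bcs1l without old ABC replicate 2 or old B1 replicate 2, and Sdhaf4 where the compared groups were fitted alone. Whether assembly factors and subunits differ was not tested.

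Regulators of mitochondrial genes held calls in 3 of the 4 comparisons. Of 17 measured, 6 fell and 1 rose in old B1 against old FO (41.2%), beside 16.4% of all genes called. In old ABC against old FO 2 fell (11.8%), a share near the 9.96% of all genes. In old ABC against old B1 2 were higher and 2 lower (23.5%), beside 12.8% of all genes. Their median differences were -0.16 in old ABC minus old FO, 0.07 in old ABC minus old B1, -0.32 in old B1 minus old FO and -0.05 in old minus young B1. Single regulators ran from -2.34 to 0.02 in old ABC minus old FO and from -1.82 to 0.63 in old B1 minus old FO. The lowest value of each of these ranges was not called. Tfam, the mitochondrial transcription factor, read 11.03, 10.79 and 11.09 on old FO, 10.41, 10.58 and 10.41 on old ABC, 10.23, 10.24 and 10.17 on old B1, and 10.15, 10.36 and 10.27 on young B1. All old FO arrays lay above the 9 others. Tfam was lower in old B1 than old FO by -0.75 ± 0.11 (adjusted p 0.000772 in limma, called under all 26 alternatives) and in old ABC than old FO by -0.50 ± 0.11 (0.013). The second of these calls was lost without old ABC replicate 1 or 3 or old FO replicate 1 or 3, with an adjusted p of at most 0.0608.

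Gabpb1, the beta subunit of GABP, read 11.13, 11.34 and 11.09 on old FO, 10.73, 10.58 and 10.67 on old ABC, 10.30, 10.45 and 10.81 on old B1, and 10.44, 10.39 and 10.47 on young B1. Old B1 minus old FO was -0.67 ± 0.13 (adjusted p 0.0056 in limma) and old ABC minus old FO -0.53 ± 0.13 (0.0294), the latter lost on leaving out any 1 of the 6 arrays compared, with an adjusted p up to 0.101. Gabpa, the DNA-binding subunit, lay between 9.93 and 10.27 and was not called. Nrf1, whose core was found in the promoters above, read 9.89, 9.31 and 9.81 on old FO, 8.91, 8.97 and 9.34 on old ABC, 8.71, 9.03 and 8.06 on old B1, and 9.07, 8.79 and 8.60 on young B1. Old B1 minus old FO was -1.07 ± 0.25 with an adjusted p of 0.0147 in limma, but the most variable probe set of Nrf1 gave -0.11 with 0.924 and the mean of its probe sets -0.65 with 0.0789, and the call was also lost without old FO replicate 1 or 3.

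Ppargc1b, a coactivator of ERR alpha, read 7.40, 7.06 and 7.44 on old FO, 6.72, 6.33 and 7.11 on old ABC, 6.19, 6.21 and 5.24 on old B1, and 6.93, 6.66 and 6.79 on young B1. Old B1 minus old FO was -1.42 ± 0.27 (adjusted p 0.0044 in limma), and -1.10 without old B1 replicate 3 (0.0033). Esrra, which encodes ERR alpha, was lower in old B1 by -0.73 ± 0.19 (0.024 in limma) and Polg2, the accessory subunit of the mitochondrial DNA polymerase, by -0.71 ± 0.17 (0.0168). Old B1 replicate 3 was the lowest array for both, and without it the differences were -0.46 and -0.52, still called; without old FO replicate 1 or 3 neither was called, with an adjusted p up to 0.160 and 0.109. Both were also higher in old ABC than old B1, by 0.70 ± 0.19 and 0.64 ± 0.17 (adjusted p 0.0347 and 0.0331 in limma); these calls were lost without any 1 old ABC array, and under 11 and 8 of 26 alternatives in all.

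Sirt3, the main mitochondrial deacetylase, went the opposite way. It read 9.96, 9.87 and 9.91 on old B1, 10.06, 9.68 and 9.81 on young B1, 9.13, 9.04 and 9.19 on old ABC, and 9.23, 9.22 and 9.39 on old FO. All 6 peritoneal arrays were above all 6 splenic ones. The differences were 0.63 ± 0.11 for old B1 minus old FO and -0.79 ± 0.11 for old ABC minus old B1, with adjusted p values of 0.0029 and 0.00097 in limma, called under all 26 alternatives. Twnk, the mitochondrial helicase, was lower in old ABC than old B1 by -0.74 ± 0.16 (0.0098 in limma). None of the 17 regulators was called between old and young B1.

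**Figure D5:**
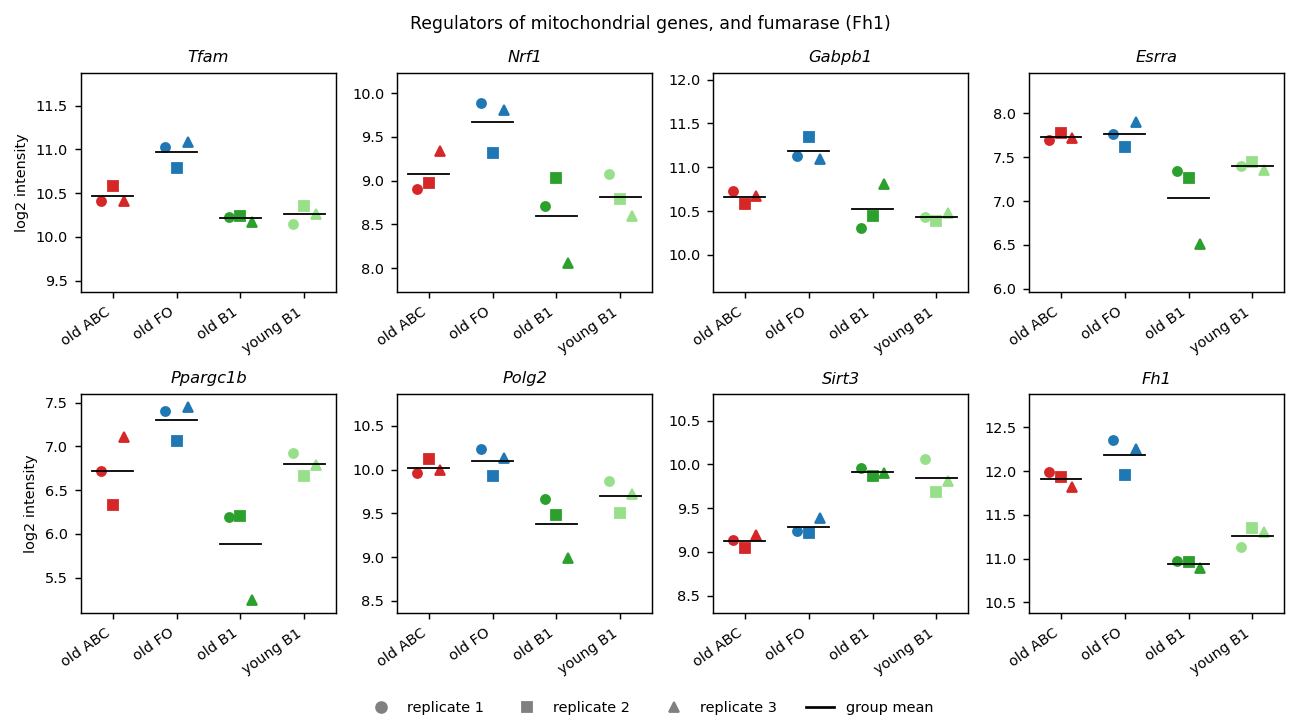
Log2 intensity of 7 regulators of mitochondrial genes and of fumarase (Fh1) on each array (points, the shape giving the replicate) with the group mean (bar), each panel with its own vertical axis. Tfam and Gabpb1 are highest on the 3 old FO arrays, and Sirt3 and Fh1 separate all peritoneal from all splenic arrays in opposite directions.

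Of 18 genes of pyruvate entry and the citric acid cycle, which feeds complexes I and II, 3 fell in old B1 against old FO, a share near the 16.4% of all genes called there, and the median of the list was -0.21. Fh1, fumarase, the enzyme after succinate dehydrogenase in the cycle, read 12.36, 11.95 and 12.25 on old FO, 11.995, 11.93 and 11.81 on old ABC, 10.97, 10.96 and 10.89 on old B1, and 11.13, 11.35 and 11.31 on young B1. No peritoneal array reached the lowest splenic one. Old B1 minus old FO was -1.24 ± 0.12 (adjusted p 5.3e-05 in limma) and old ABC minus old B1 0.97 ± 0.12 (0.00043), and both were called under all 26 alternatives. Mpc1, a subunit of the mitochondrial pyruvate carrier, was lower in old B1 by -0.88 ± 0.23 (0.0248 in limma) and Dlst, of the 2-oxoglutarate dehydrogenase complex, by -0.39 ± 0.11 (0.031). Without old FO replicate 1 or 3 or old B1 replicate 2 the Mpc1 call was lost, with an adjusted p up to 0.0981, and the Dlst call under 8 of 26 alternatives, among them leaving out old FO replicate 1 or 2, old B1 replicate 1 or 3, or young B1 replicate 3, with up to 0.179. The list gave no call between old ABC and old FO or between old and young B1.

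Of 17 genes of mitochondrial membranes and chaperones, Slc25a4, the ADP/ATP carrier that exports the product of oxidative phosphorylation, was the only one called. It read 11.996, 11.79 and 11.95 on old ABC, 11.24, 11.56 and 11.45 on old FO, 12.04, 12.18 and 11.81 on old B1, and 12.08, 12.06 and 12.17 on young B1. The old FO arrays were below all others. Old B1 minus old FO was 0.59 ± 0.12 (adjusted p 0.0076 in limma) and old ABC minus old FO 0.50 ± 0.12 (0.0283); the second was lost without old ABC replicate 1 or 3 or old FO replicate 1 or 3 and reached an adjusted p of 0.445 with other probe sets. Among 11 genes of uncoupling and antioxidant defence, Prdx3, the mitochondrial peroxiredoxin, was higher in old ABC than old FO by 0.53 ± 0.11 (0.0122 in limma), Cat, catalase, lower in old ABC than old B1 by -0.61 ± 0.13 (0.0097), and Txn2, mitochondrial thioredoxin, higher in old B1 than old FO by 0.60 ± 0.16 (0.0291) and lower in old ABC than old B1 by -0.57 ± 0.16 (0.0422). The Prdx3 call was lost without old ABC replicate 1 or old FO replicate 3, and the Txn2 calls under 6 and 16 of the 26 alternatives. Calls in the antioxidant list were 9.09% in old ABC minus old FO, 18.2% in old ABC minus old B1 and 9.09% in old B1 minus old FO. Of all genes, 9.96%, 12.8% and 16.4% were called there. Slc25a4 alone is 5.88% of its list, below the share of all genes in both comparisons that called it.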

How the data were processed

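RNA of 12 arrays in 4 groups of 3 was compared. The authors deposited 1 linear intensity per probe set and array, between 3.00 and 22068. RMA and affy are named in the submitters' processing notes. Versions and settings were not given in the sources used here. From these, log2 of each deposited intensity was computed. Each gene takes the brightest of its probe sets with 1 symbol, and 932 probe sets with several symbols and 9160 with none, of 45037, were left out. All 12 arrays were fitted with 4 group means in limma 3.58.1 (R 4.3.3; lmFit and eBayes, 8 residual degrees of freedom, prior 2.37), without a filter on dim genes, and p-values were adjusted by Benjamini-Hochberg over 18193 genes in each comparison. The number of arrays limits the precision. On simulated data, between 30 and 42 of 50 genes changed by 1 log2 unit were called in the 4 comparisons, and between 4 and 8 of 50 changed by 0.5.

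The members and gene lists were chosen with earlier results of these data known, so no list was tested and no p was adjusted over a list. Values on every array are given for up to 6 called members per comparison (or the 3 of lowest p), the brightest of each complex, Cycs, and the 3 members of smallest range; other lists are given by counts and by their called genes of lowest p, the regulators by name. Members of widest range, those of the opposite pattern, and the further called genes of the lists were named after their values were seen. Alternatives were other probe set rules, scalings and limma settings, a filter on dim genes, a fit of 2 groups only, a replicate block, the 75th percentile as a covariate, a stricter threshold, and leaving out arrays. The motifs were searched in RefSeq windows; plots used Python 3.11.15 and matplotlib 3.10.9.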

Additional observations from a re-analysis of the deposited data

How the results depend on the processing

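In the simulation, with 3 arrays a group, differences of 0.5 log2 units were mostly not called, but few genes were changed there. In the data themselves smaller differences were called, among them Ndufs1 at -0.37 in old B1 minus old FO. The simulation does not give the power for the members, and a member without a call is described by its interval only, on 1 probe set. Members called in old B1 minus old FO were 1 of 38 as reported, beside 16.4% of all genes. The count was 3 with the mean of a gene's probe sets (17.1% of all genes), 2 with the most variable probe set (16.3%) and 2 with centring on the median (17.7%). It was 2 with the filter on dim genes (29.1%), 3 with array weights (27.5%) and 3 without old B1 replicate 3 and old FO replicate 2 (22%). It was 0 with centring on the 75th percentile (16.7%), cyclic loess (16.9%) and repeated quantile normalization (16.7%). It was also 0 with the compared groups alone (8%), the 75th percentile as a covariate (21.7%) and an adjusted p under 0.01 (9.38%). Over leaving out each array it ran from 0 to 4, beside 11.5% to 19.5% of all genes. In old ABC minus old B1, 0 members were called as reported, beside 12.8% of all genes. Sdhb was the 1 member called with cyclic loess (13.5% of all genes), repeated quantile normalization (13.2%) and the filter on dim genes (21.2%). It was also the 1 member called with trend and robust fitting (13.4%) and array weights (19.7%). The count there ran from 0 to 1 over leaving out each array, beside 8.84% to 15% of all genes. The 4 members called without old FO replicate 2 in old B1 minus old FO were Ndufa8, Ndufs1, Sdhc and Cyc1, beside 16.2% of all genes. By the moderated F test 0 members were called as reported, beside 20.5% of all genes. With mean probe sets 1 was called (Ndufa3), with the most variable ones 2, with centring on the median 1 (Uqcrc1) and with array weights 6. With the covariate 1 was called (Sdhb), without both arrays that stand apart 4, and over leaving out each array 0 to 1. The shares of all genes under these alternatives of the F test are not given here.

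The median member difference of old B1 minus old FO was -0.16 with the most variable probe set, that of old ABC minus old FO -0.048 with centring on the median, that of old ABC minus old B1 0.038 with centring on the 75th percentile, and that of old minus young B1 0.10 with the same centring; over leaving out each array the old ABC minus old B1 median ran from 0.0293 to 0.180, that of old ABC minus old FO from -0.019 to 0.091, that of old B1 minus old FO from -0.127 to -0.061 and that of old minus young B1 from -0.017 to 0.056. Ndufa3 in old B1 minus old FO, 0.03 as reported, was -0.47 with mean probe sets and -1.43 with the most variable one. Regulators called in old B1 minus old FO were 7 of 17 as reported, beside 16.4% of all genes. They numbered 3 with the compared groups alone (8% of all genes) and 4 at an adjusted p under 0.01 (9.38%). Over leaving out each array they ran from 4 to 9, beside 11.5% to 19.5% of all genes. Whether the replicate numbers pair the samples cannot be told from these values. Same-numbered arrays of different groups correlated between -0.39 and 0.23 in their deviations over 18 pairs, and arrays of different number between -0.39 and 0.44. The lowest and highest of these involve old FO replicate 2, which stands apart over all genes. With the replicate number as a block, the members called in old B1 minus old FO numbered 0, beside 14.1% of all genes.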
